A study of Mus musculus with 6 samples.

Results

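The genes described here encode the multidomain members of the BCL-2 family that decide whether the outer mitochondrial membrane stays closed or is opened. They were chosen by gene symbol as the survival genes Bcl2, Bcl2l1, Mcl1 and Bcl2l2 and the effector genes Bax, Bak1 and Bok, and each symbol matched 1 row, so that 7 of the 22322 genes in the deposited table are members. RNA-Seq had been performed on sorted CD4+CD8+ double-positive (DP) thymocytes, the most numerous T-cell precursors of the thymus, from mice aged 4 to 7 weeks and of mixed sexes. Control mice were Paxbp1fl/fl littermates, for which no Cre is named, and gave 3 libraries. The sample titles name these libraries WT-DP, while the methods give the floxed littermates as controls for every experiment. Paxbp1 cKO mice carried the same floxed alleles, in which exon 8 is flanked by loxP sites, together with the Lck-cre transgene, and also gave 3 libraries. Both groups were on the C57BL/6 background and no treatment is named for either. In this transgene the proximal Lck promoter drives Cre from early thymocytes onwards, so deletion is not confined to the DP stage. The question put to the RNA was whether a changed gene programme accompanies the high apoptosis of Paxbp1-deficient DP cells. Nothing in the sources says whether each library came from a separate animal, so the p-values measure the spread between these samples, which may be partly technical.

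Proteins of this family share BCL-2 homology domains and act on each other at the mitochondrion. The survival proteins BCL-2, BCL-xL (from Bcl2l1), MCL-1 and BCL-w (from Bcl2l2) hold BAX and BAK in check. When BH3-only proteins occupy the survival proteins or act on BAX and BAK directly, these effectors form pores, cytochrome c leaves the mitochondrion and caspases are activated. DP thymocytes are known for their reliance on BCL-xL during the time in which they rearrange the T-cell receptor alpha locus, and for low BCL-2, which rises again in mature single-positive cells.

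Library totals ranged from 18963775 to 26252248 counts. Levels are given as CPM, the count relative to the library total after TMM scaling (factors of 0.982 to 1.01), and a single count stood for 0.0381 to 0.0527 CPM. After edgeR's filter on low counts 11488 of 15349 detected genes were tested, among them 6 of the 7 members. Paxbp1 itself had 40.1, 16.3 and 15.5 CPM in control libraries 1, 2 and 3 and 38.8, 47.1 and 49.6 CPM in libraries 1, 2 and 3 labelled cKO, an edgeR log2 fold change of 0.92 ± 0.32 (SE) with adjusted p = 0.0952. These counts are summed over the whole gene and do not measure exon 8, so they do not check the labels, and cKO below denotes the libraries so labelled.

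No member passed the test. At an adjusted p below 0.05, edgeR called 0 of the 6 tested members, beside 10.8% of all tested genes (4.75% higher and 6.06% lower in cKO, and 2.79% in either direction with an absolute log2 fold change above 1). At an unadjusted p below 0.05 it called 1 member, Bcl2l1, beside 27.8% of all genes. DESeq2 and limma-voom also called 0 members, and 1 at the unadjusted threshold, again Bcl2l1. The median log2 fold change, cKO over control, was -0.16 over the 4 survival genes and -0.09 over the 2 tested effector genes, beside 0.00 (-0.0017) over all tested genes.

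To show the DNA in front of the members with the highest levels, the 250 bases before the RefSeq start site are given 5′ to 3′ on the gene's strand (GRCm38.p6). The Bcl2l1 window precedes the most distal of its 3 start sites in that table, at chr2:152831729-152831978 on the minus strand. The Mcl1 window is chr3:95658471-95658720 on the plus strand, and the Bax window is chr7:45466899-45467148 on the minus strand. Capitals mark E-boxes (CANNTG, on either strand), a class of elements that includes sites of E proteins such as those encoded by Tcf3 and Tcf12. In Bax they also mark the p53 decamer, which is a half-site, since Bax is a known target gene of p53.
Bcl2l1: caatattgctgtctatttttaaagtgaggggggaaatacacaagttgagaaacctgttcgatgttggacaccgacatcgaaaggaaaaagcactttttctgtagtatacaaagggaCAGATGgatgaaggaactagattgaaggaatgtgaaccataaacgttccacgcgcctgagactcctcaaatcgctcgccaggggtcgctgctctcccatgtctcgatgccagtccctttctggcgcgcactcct
Mcl1: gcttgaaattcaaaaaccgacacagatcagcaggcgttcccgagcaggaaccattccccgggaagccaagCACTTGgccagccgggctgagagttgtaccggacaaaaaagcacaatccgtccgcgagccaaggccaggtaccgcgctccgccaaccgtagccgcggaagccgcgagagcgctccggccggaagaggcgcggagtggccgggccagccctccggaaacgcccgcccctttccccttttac
Bax: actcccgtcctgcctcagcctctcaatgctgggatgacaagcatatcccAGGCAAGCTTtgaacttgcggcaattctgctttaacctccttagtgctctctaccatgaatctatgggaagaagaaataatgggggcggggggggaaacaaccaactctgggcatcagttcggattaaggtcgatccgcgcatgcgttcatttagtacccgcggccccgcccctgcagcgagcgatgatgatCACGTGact
Each of the 3 windows held 1 E-box, as did 66.2% of 32851 mouse windows of the same length at 1 or more copies. The Bax E-box reads CACGTG, found in 6.02% of the windows, and its p53 decamer was found in 7.13%. The Bax window also held 2 copies of the GC box GGGCGG, and the Mcl1 window 1 copy, in either orientation. That motif occurred in 32.7% of all windows. The TCF core CTTTGA was present in the Bax window, where it overlaps the p53 decamer, and in 13.8% of all windows. A match of letters is a description and not a binding site. No annotated exon lay in the 3 printed windows, whereas windows before the other 2 Bcl2l1 start sites overlapped exons.

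Bcl2l1 was the leading survival gene. It is found on chromosome 2, minus strand, 152780668 to 152831728 (GENCODE M21 on GRCm38, also used for the positions below), and its 9 annotated transcripts were counted as 1 gene, so that the long form, which protects, and the short form, which does not, cannot be told apart. Control libraries 1, 2 and 3 gave 17794, 13417 and 16676 counts of Bcl2l1, and cKO libraries 1, 2 and 3 gave 11065, 12682 and 11188. On the CPM scale these were 923, 689 and 647 in controls and 505, 660 and 516 in cKO. Control library 1 stood above the rest and cKO libraries 1 and 3 below, but the groups overlapped, because cKO library 2 exceeded control library 3. The means were 753 ± 148 and 560 ± 86.5 CPM (mean ± S.D., n = 3 each). The edgeR log2 fold change was -0.43 ± 0.16 (SE), or a difference of -25.6% with a 95% interval from -41.5% to -5.39%, and its adjusted p was 0.104. The exact two-sided permutation test over the 20 assignments gave p = 0.2, where 0.1 is the smallest p that 3 against 3 allows. Control library 1 weighed on the size: without it the fold change shrank to -0.26 on the log2 scale (adjusted p of 0.169 from edgeR), and over all alternatives it ranged from -0.56 to -0.26 with adjusted p from 0.061 to 0.320.

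Mcl1 encodes the short-lived survival protein MCL-1, which binds BAK and several BH3-only proteins. Its gene occupies 95658788 to 95663176 of chromosome 3, plus strand. Its CPM was 214, 144 and 162 in control libraries 1, 2 and 3 and 176, 161 and 156 in cKO libraries 1, 2 and 3. All cKO values fell within the span of the controls. The means were 173 ± 36.2 and 164 ± 10.4 CPM (S.D., n = 3 each), and the edgeR log2 fold change of -0.08 ± 0.15 (SE) had an adjusted p of 0.775. Its 95% interval ran from -24.4% to 18.5%, which spans lower and higher levels in cKO. The smallest difference in Mcl1 that these libraries could detect was not tested. Without control library 1 the sign turned, to 0.10 on the log2 scale with adjusted p = 0.560 from edgeR.

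Bcl2 itself, the founding member of the family, was counted far less often. It spans 176097 nt of chromosome 1, minus strand, from 106538178 to 106714274. Its CPM was 18.9, 22.5 and 25.6 in control libraries 1, 2 and 3 and 18.2, 19.7 and 18.6 in cKO libraries 1, 2 and 3. Control library 1 lay inside the cKO values, so the groups overlapped. The means were 22.3 ± 3.33 and 18.8 ± 0.779 CPM (S.D., n = 3 each), with an edgeR log2 fold change of -0.25 ± 0.19 (SE), a 95% interval from -0.66 to 0.16 and adjusted p = 0.426. An antisense gene, D630008O14Rik, overlaps 18.8% of the Bcl2 span, and the deposited counts hold no entry under its Ensembl identifier. The sources do not say whether reads were assigned by strand, so reads from these 2 genes could not be told apart.

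Bcl2l2, the gene for BCL-w, was close to the limit of detection. Its counts were 8, 25 and 6 in control libraries 1, 2 and 3 and 22, 24 and 49 in cKO libraries 1, 2 and 3, which is 0.644 ± 0.562 and 1.505 ± 0.666 CPM (S.D., n = 3 each). The edgeR log2 fold change of 1.23 ± 0.80 (SE) had a 95% interval from -0.54 to 3.01 and an adjusted p of 0.354. It was 2.21 without control library 2 and 0.81 without cKO library 3, so single libraries set its size. The predicted gene Gm20521 covers 98.7% of Bcl2l2 on the same strand of chromosome 14 (54883377 to 54888234 for Bcl2l2), and it was given 5, 0 and 0 counts in controls and 23, 13 and 4 in cKO. The sources do not say how reads were divided between these genes, so the Bcl2l2 values are uncertain.

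Among the effectors, Bax was the only member whose libraries did not overlap between the groups. Bax encodes a mostly cytosolic protein that moves to the mitochondrion on activation, and its gene is at 45461697 to 45466898 of chromosome 7, minus strand. Control libraries 1, 2 and 3 gave 1542, 1441 and 1880 counts of Bax, and cKO libraries 1, 2 and 3 gave 1771, 1872 and 2067. As CPM these were 79.9, 74.0 and 73.0 in controls and 80.8, 97.4 and 95.4 in cKO. The gap between the groups was narrow, since cKO library 1 exceeded control library 1 by less than 1 CPM. Groups that did not overlap were found for 33% of all tested genes, 15.7% with cKO higher, so 1 of 6 members is no more than the background share. The means were 75.6 ± 3.76 and 91.2 ± 9.06 CPM (S.D., n = 3 each). The edgeR log2 fold change was 0.27 ± 0.13 (SE), a difference of 20.6% with a 95% interval from -0.585% to 46.2%, and its adjusted p was 0.193. The exact permutation test gave p = 0.1, the smallest it allows. Over all alternatives the log2 fold change lay between 0.22 and 0.35 and the adjusted p between 0.107 and 0.434. The overlapping gene Gm45808, which covers 17.6% of Bax, had at most 4 counts in any library.

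Bak1, the gene for the effector that is resident in the mitochondrial membrane, was counted 53, 76 and 120 times in control libraries 1, 2 and 3 and 58, 66 and 48 times in cKO libraries 1, 2 and 3. This corresponded to 3.77 ± 0.962 and 2.77 ± 0.619 CPM (S.D., n = 3 each), and the groups overlapped. The edgeR log2 fold change of -0.45 ± 0.42 (SE) had a 95% interval from -1.37 to 0.47 and adjusted p = 0.526. On chromosome 17 the whole of Bak1 (27019810 to 27029009) lies under the gene Ggnbp1 on the other strand, which held 16 to 48 counts per library. Bok, an effector of the same fold that is regulated by its own turnover, was counted 7, 3 and 0 times in control libraries 1, 2 and 3 and 0, 0 and 17 times in cKO libraries 1, 2 and 3. It did not pass the filter and was not tested. A count of 0 allows up to 3 counts, so Bok was not detectable at this depth in 3 of the 6 libraries. Intervals of this kind cover counting error only.

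**Figure D1:**
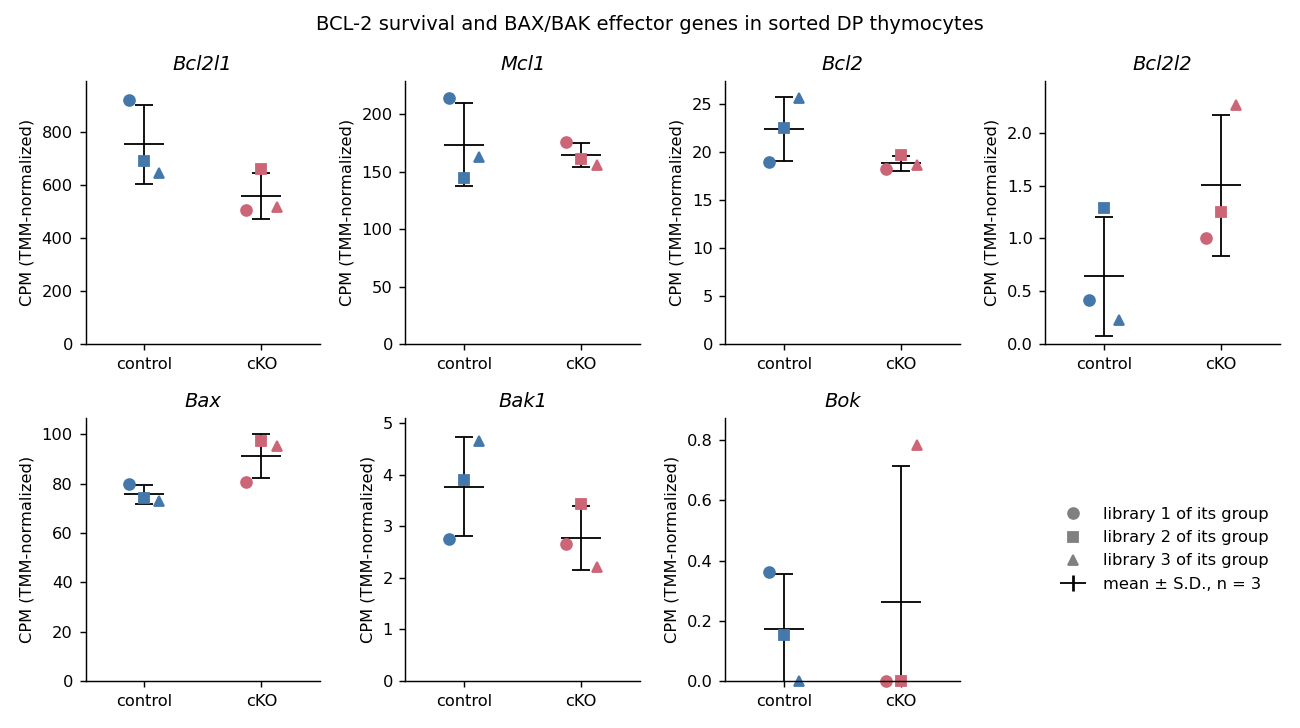
Each panel plots the TMM-normalized CPM of 1 gene (vertical axis from 0) in the 3 control (blue) and 3 cKO (red) libraries, with mean and S.D. in black. Bcl2l1 controls reach from 647 to 923 CPM and cKO from 505 to 660 CPM, Bax is the only gene whose groups do not overlap, and the error bars of Bok are cut off at 0.

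To compare levels between genes, the authors' FPKM values were used, which divide by transcript length. In the order of mean FPKM the genes were Bcl2l1, Bax, Mcl1, Bcl2, Bak1, Bcl2l2 and Bok, and this order held in 5 of 6 libraries, with Bok above Bcl2l2 in control library 1. The order of the 5 highest held in 6 of 6. Bcl2l1 had 396, 294 and 272 FPKM in control libraries 1, 2 and 3 and 215, 284 and 221 FPKM in cKO libraries 1, 2 and 3. It ranked between 127 and 399 among all 22322 genes in each library. Bax followed with 89.6, 81.5 and 80.2 FPKM in controls and 91.1, 111 and 107 FPKM in cKO. Mcl1 had 63.2, 42.3 and 46.9 FPKM in controls and 51.9, 47.9 and 45.5 FPKM in cKO. A wide gap separated these 3 genes from Bcl2, which had 4.50 to 5.08 FPKM in controls and 4.16 to 4.47 FPKM in cKO. Bak1 lay between 1.12 and 2.76 FPKM, Bcl2l2 between 0.06 and 0.74 FPKM and Bok between 0 and 0.61 FPKM over the 6 libraries. Every pair of neighbours in this order was separated over the 6 libraries except Bcl2l2 and Bok, whose ranges overlapped.

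**Figure D2:**
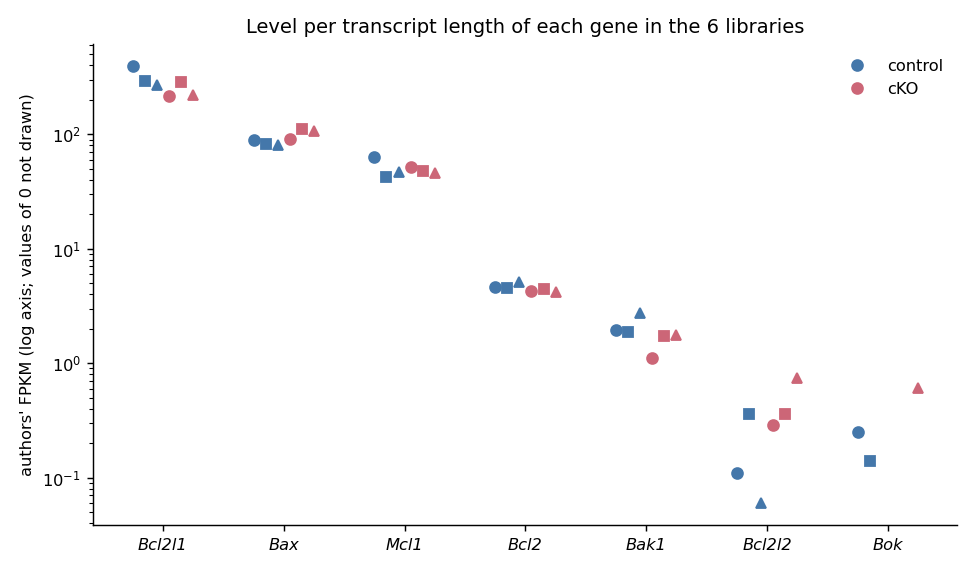
The authors' FPKM (log axis) of each gene in the 6 libraries, in the order of mean level, control blue and cKO red. Bcl2l1 sits between 215 and 396, Bax between 80.2 and 111, Mcl1 between 42.3 and 63.2, and the other 4 genes at or below 5.08, while values of 0 (Bok in 3 libraries) are not drawn.

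The transcript length that would link each FPKM to its count and library total was computed. For Bcl2l1 it was 2320 to 2362 nt, for Mcl1 3372 to 3418 nt and for Bax 887 to 902 nt, each nearly constant over the libraries. For Bcl2 it varied from 4139 to 4942 nt, a ratio of 1.19, and for Bak1 from 1250 to 2382 nt, a ratio of 1.91. The median ratio over 7167 genes with at least 5 FPKM in each library was 1.04, although the FPKM of Bcl2 and Bak1 lay mostly or wholly below that floor. The FPKM and the count of Bak1 were thus not in a fixed proportion, and how the authors formed them was not tested. As an example, cKO library 3 had the fewest counts (48) but the highest FPKM of its group (1.77).

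Within a library the survival and effector genes shared the same RNA, so their proportions were read library by library. Of the summed FPKM of the 7 genes, Bcl2l1 made up 71.3%, 69.2% and 66.8% in control libraries 1, 2 and 3 and 59.2%, 63.2% and 58.0% in cKO libraries 1, 2 and 3. Bax made up 16.1%, 19.2% and 19.7% in controls and 25.0%, 24.7% and 28.2% in cKO. The groups did not overlap in either share. Bcl2l1 and Bax hold most of this sum, so that by arithmetic a lower share of one goes with a higher share of the other, and the shares add little to the ratio of these genes. The share of Mcl1 was 9.96% to 11.5% in controls and 10.7% to 14.3% in cKO, which overlap. Bax accounted for 96.7% to 98.8% of all effector FPKM in every library, so the effector total is almost entirely Bax. The 4 survival genes summed to 464, 341 and 324 FPKM in controls and 272, 337 and 271 FPKM in cKO, a difference of the means of -22% with overlap. The 3 effector genes summed to 91.8, 83.6 and 83.0 FPKM in controls and 92.2, 112 and 110 FPKM in cKO, a difference of 21.7% without overlap. The narrowest gap, 91.8 against 92.2 FPKM, lay between control library 1 and cKO library 1. Being almost entirely Bax, this total adds little to Bax itself. In CPM, groups did not overlap for 33% of all tested genes.

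The Bcl2l1 to Bax ratio of FPKM was 4.42, 3.60 and 3.39 in control libraries 1, 2 and 3 and 2.37, 2.57 and 2.06 in cKO libraries 1, 2 and 3. Every cKO library lay below every control library, with the closest pair at 2.57 and 3.39. On the log2 scale the means were 1.92 ± 0.20 and 1.21 ± 0.16 (S.D., n = 3 each), a difference of -0.70. This exceeded the S.D. of either group, and it was -0.69 with CPM in place of FPKM. Leaving out each library in turn gave -0.78 to -0.59. No p is given, because the ratio was formed over chosen genes. The same ratio to Bax, formed from CPM for 11121 genes, separated the groups for 36.2% of them and was lower in cKO for 31.5%, so the separation is common among genes when Bax is the denominator.

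The remaining ratios varied in how well they parted the groups. The Mcl1 to Bax ratio was 0.706, 0.518 and 0.584 in controls and 0.570, 0.433 and 0.424 in cKO, which overlap, with a log2 difference of -0.34. The Bcl2 to Bax ratio did not overlap, at 0.0516 to 0.0633 in controls against 0.0388 to 0.0470 in cKO (log2 difference -0.43). For Bcl2l1 to Mcl1, both survival genes, the ratio was 5.80 to 6.95 in controls and 4.15 to 5.93 in cKO, with a log2 difference of -0.36 and overlap. Bcl2l1 to Bcl2 also overlapped, with a log2 difference of -0.27 that was -0.18 in CPM and -0.09 without control library 1. Bcl2l1 to Bak1 showed no clear shift, with a log2 difference of 0.12 in FPKM and 0.02 in CPM and overlap in both. Leaving out each library in turn gave -0.16 to 0.35 for it. Bax to Bak1 differed by 0.82 on the log2 scale without overlap in FPKM, but by 0.70 with overlap in CPM. The 4 survival genes summed over the 3 effector genes gave 5.06, 4.08 and 3.90 in controls and 2.95, 2.995 and 2.47 in cKO, a log2 difference of -0.63 without overlap.

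**Figure D3:**
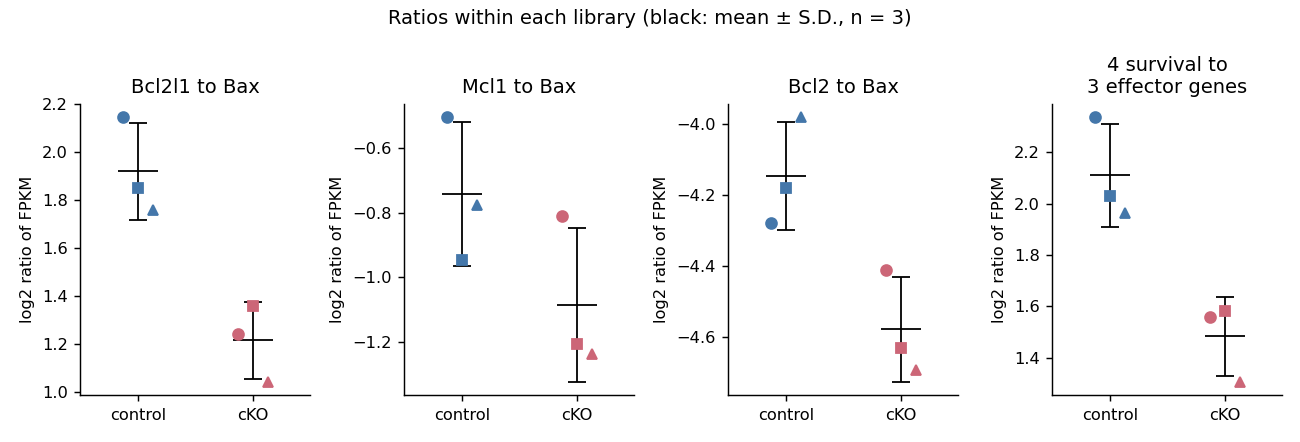
Log2 ratios of FPKM within each library (vertical axes do not start at 0), control blue and cKO red, with mean and S.D. in black. The Bcl2l1 to Bax ratio separates the groups (means 1.92 and 1.21), as do Bcl2 to Bax and the summed ratio, whereas the Mcl1 to Bax ratio overlaps.

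Other genes of the same pathway were read from lists chosen by function. Of 9 further BCL-2 relatives 5 were tested and edgeR called 1, beside 10.8% of all tested genes, with a median log2 fold change of -0.09. Bcl2l12, which encodes a BCL-2-related protein also found in the nucleus, fell from 27.7 ± 2.51 to 16.4 ± 2.51 CPM (S.D., n = 3 each; edgeR log2 fold change -0.75 ± 0.19 SE, adjusted p = 0.0317). Bcl2l13, a mitochondrial receptor for mitophagy, had 82.8 ± 9.19 CPM in controls and 104 ± 3.51 CPM in cKO, where the log2 fold change of 0.33 had an edgeR adjusted p of 0.110. Bcl2a1b and Bcl2a1d, near-identical copies between which reads may be split, had a mean of about 1 CPM or less in each group and were not called.

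BH3-only proteins act directly on the members. Of their 8 genes 7 were tested, and with all libraries edgeR called 2 higher and 0 lower, with a median log2 fold change of 0.01. Over all tested genes it called 4.75% higher and 6.06% lower. The unadjusted threshold of 0.05 gave 3 of the 7 in edgeR, with Bmf the 1 lower, beside 27.8% of all tested genes. Other tools called 1 gene lower each, named here after their values were seen: Bmf by DESeq2 (adjusted p = 0.0446), and Bik by limma on log2(FPKM + 0.1) (0.0476) and log2(FPKM + 1) (0.0359). Pmaip1, which encodes NOXA, the BH3-only protein that neutralizes MCL-1, rose from 10.6 ± 1.54 to 52.5 ± 4.74 CPM (S.D., n = 3 each; edgeR log2 fold change 2.30 ± 0.18 SE, adjusted p = 7.31e-04). Bcl2l11, which encodes BIM, rose from 99.1 ± 41.2 to 245 ± 76.5 CPM (S.D., n = 3 each; edgeR log2 fold change 1.31 ± 0.31 SE, adjusted p = 0.0303). Bbc3, the PUMA gene, had a log2 fold change of 0.51 (adjusted p = 0.255) and Bid one of 0.01 (adjusted p = 0.974). Bbc3 depended on single controls, at 0.89 and called without control library 1 (edgeR adjusted p = 0.0151) but 0.24 without control library 2 (0.563). The Pmaip1 call was kept when any 1 library was left out. The Bcl2l11 call was lost without control library 2 (edgeR adjusted p = 0.0639), control library 3 (0.138), cKO library 1 (0.0858) or cKO library 3 (0.101), and with all libraries when no filter on low counts was applied (0.114). All other fits kept it, at adjusted p of 0.00315 with the replicate number as a block (edgeR), 0.019 in DESeq2 and 0.016 in limma-voom. Bcl2l12 was called only with control library 1 left out among the 6 fits that left out 1 library, with adjusted p from 0.0640 to 0.137 in the other 5.

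With all libraries edgeR called 0 of 13 genes for partners of BCL-2 proteins at the mitochondrion and for MCL-1 turnover. Their median log2 fold change was -0.01, and edgeR called 10.8% of all tested genes. At an unadjusted p below 0.05 edgeR called 2 of the 13, beside 27.8% of all tested genes. DESeq2 and limma-voom likewise called 0 of the 13 after adjustment and 2 before it. Other fits called single members, named here after their values were seen. Mtch2 was called higher by limma on log2(FPKM + 0.1) (adjusted p = 0.0349) and log2(FPKM + 1) (0.0323), and Usp9x was called higher by edgeR without control library 1 (0.0292). The most abundant of these genes were Tmbim6, which encodes BAX inhibitor 1 of the endoplasmic reticulum, at 799 ± 17.8 and 741 ± 48.8 CPM, Bnip3l, a mitophagy receptor, at 262 ± 40.8 and 259 ± 10.8 CPM, and Bcap31, a substrate of initiator caspases, at 258 ± 37.6 and 270 ± 7.71 CPM (S.D., n = 3 each, control and cKO). Their log2 fold changes were -0.11, -0.01 and 0.07.

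All 12 genes for transcription factors known to sustain Bcl2l1 or DP survival were tested. Of these, edgeR called 1 higher and 0 lower, beside 4.75% and 6.06% of all tested genes. The median log2 fold change of the 12 was -0.14. Groups did not overlap for 7 of the 12, beside 33% of all genes. At an unadjusted p below 0.05 edgeR, DESeq2 and limma-voom each called 6 of the 12, beside 27.8% of all genes in edgeR. Of the 12 log2 fold changes 3 were above 0, beside 5718 of 11488 over all tested genes. Rela, the gene for the NF-kB subunit p65, rose from 102 ± 8.74 to 140 ± 9.29 CPM (S.D., n = 3 each; edgeR log2 fold change 0.46 ± 0.12 SE, adjusted p = 0.0341). That call was kept only without control library 1 among the fits with 1 library left out, with adjusted p of 0.0662 to 0.156 in the other 5. Tcf7, the gene for TCF-1, had 3135 ± 199.8 CPM in controls and 2605 ± 194 CPM in cKO (log2 fold change -0.27, edgeR adjusted p = 0.145), and without control library 1 it was called lower (adjusted p = 0.0327). Ets1 had a log2 fold change of -0.18 (adjusted p = 0.300) and Myb one of -0.02 (adjusted p = 0.954).

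Downstream of the pore 9 genes were tested, and their median log2 fold change was 0.02. Opa1, whose product keeps the cristae closed around cytochrome c, fell from 104 ± 18.9 to 66.2 ± 0.448 CPM (S.D., n = 3 each; edgeR log2 fold change -0.65 ± 0.15 SE, adjusted p = 0.0211). Cycs, the cytochrome c gene, had a log2 fold change of 0.29 (adjusted p = 0.181), and Diablo, the gene for an antagonist of caspase inhibitors, one of -0.16 (adjusted p = 0.379). The Opa1 call was kept only without control library 1 among the 6 fits that left out 1 library, with adjusted p of 0.0600 to 0.0983 in the other 5.

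**Figure D4:**
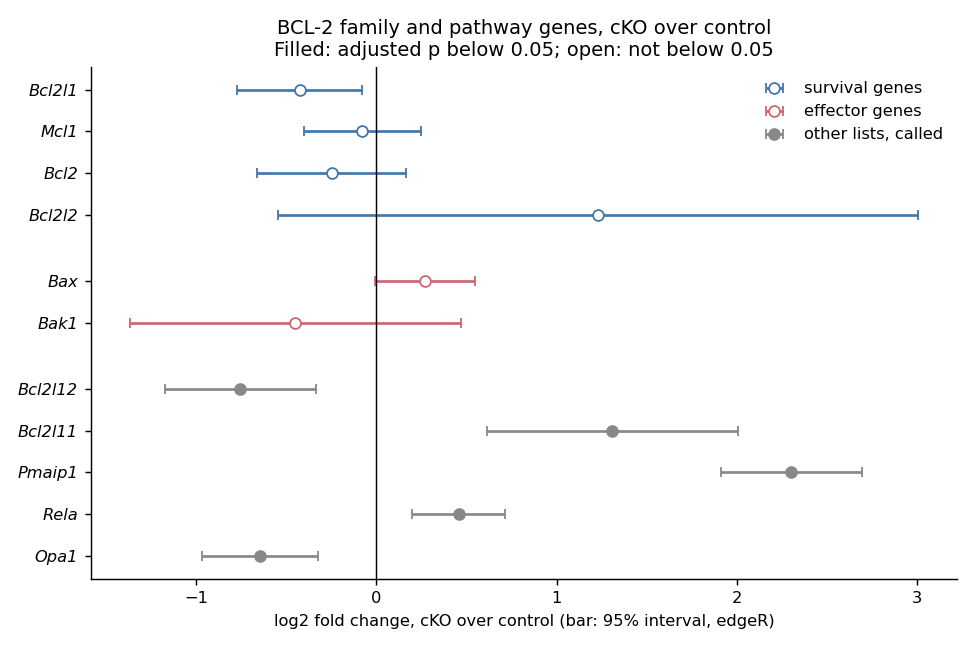
The edgeR log2 fold change, cKO over control, with 95% intervals, for the survival genes (blue), the effector genes (red) and 5 called genes of the other lists (grey). Filled points have an adjusted p below 0.05, and all 6 tested members are open, from -0.45 for Bak1 to 1.23 for Bcl2l2.

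Markers of cell types were read beside these results, since in RNA of many cells fewer cells of a type and less RNA per cell cannot be told apart. Over all tested genes edgeR called 4.75% higher and 6.06% lower at an adjusted p below 0.05, and 27.8% at an unadjusted p below 0.05. The 10 DP markers were present in all libraries, and their sum was 11371 to 13398 CPM in controls and 8135 to 9560 CPM in cKO, with 5 called lower (Cd4, Cd8b1, Rag1, Cd1d1 and Ly6d), 0 higher and a median log2 fold change of -0.45. Of 15 macrophage markers 10 were tested and 4 were called higher (C1qb, C1qc, Cd68 and Adgre1). Their median log2 fold change was 2.10, and the sum of the 15 was 15.8 to 42.9 CPM in controls and 55.2 to 75.6 CPM in cKO. Adgre1 was at 0 in all controls, and Mertk and Vsig4 were at 0 in all 6 libraries. Of 7 markers of the double-negative and immature single-positive stages, 3 were called higher (Il2ra, Hes1 and Dtx1), while Kit, Notch3 and Ptcra had log2 fold changes of -0.93, -0.76 and -0.31 and the list a median of 0.07. Of 6 tested markers of late DP and mature single-positive cells edgeR called 0, and 3 at an unadjusted p below 0.05. Among these 3, Cd69 was higher in cKO with overlap (log2 fold change 1.47, edgeR adjusted p = 0.0508). Itgb7 was lower without overlap (-0.57, edgeR adjusted p = 0.0803), and the list had a median of -0.43. Among markers of other cells, Cd79b was called lower, while edgeR called 0 of the tested erythroid, dendritic and epithelial markers, also at an unadjusted p below 0.05, and the summed neutrophil markers did not exceed 0.312 CPM. The part of these cell types in the levels of Bcl2l1 and Bax was not tested.

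The genes whose levels followed the leading survival gene and the leading effector gene most closely were found by Pearson's r of log2 CPM over the 6 libraries, among 9201 genes with a mean of at least 5 CPM. For Bcl2l1 they were Srsf5, an SR splicing factor (r = 0.990), Rps6kb1, the S6 kinase gene (r = 0.988), and Txlng (r = 0.988), with log2 fold changes of -0.34, -0.27 and -0.44, none of them called. For Bax they were Copb1, a coatomer subunit gene (r = 0.992), Slmap (r = 0.989) and Sash3, a lymphocyte adaptor gene (r = 0.987), with log2 fold changes of 0.29, 0.29 and 0.47. Of these, Sash3 was called (edgeR adjusted p = 0.0486). All points share the same libraries and depths, and these genes were the highest of many, so r is a description with no p.

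**Figure D5:**
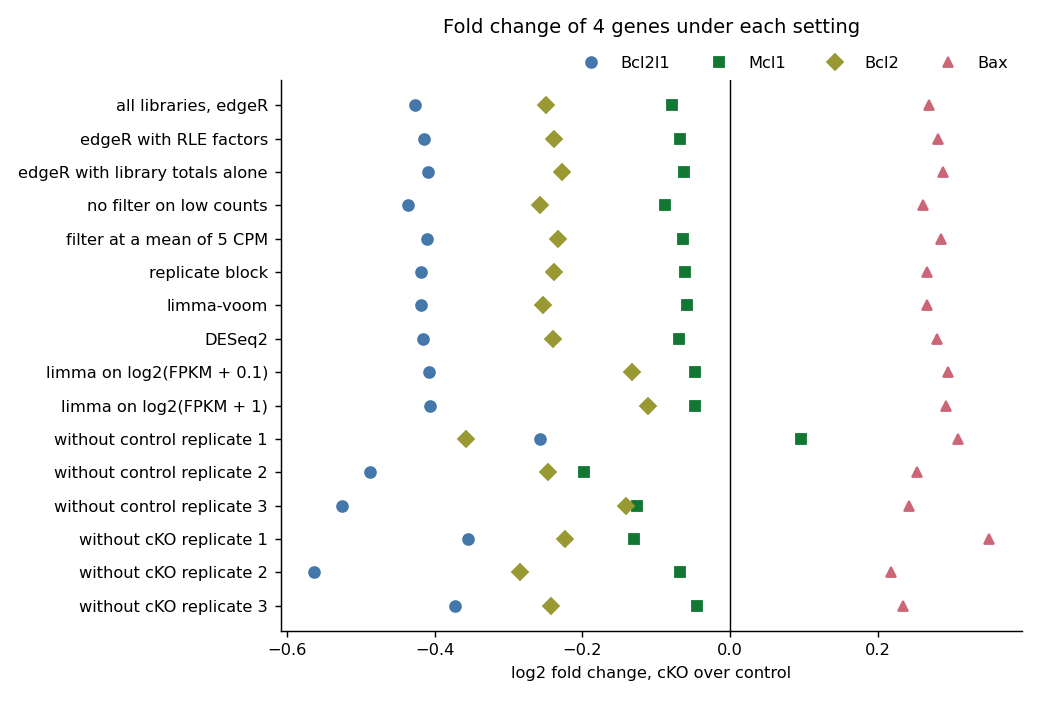
The log2 fold change, cKO over control, of Bcl2l1, Mcl1, Bcl2 and Bax (horizontal axis) under each way of processing and with each library left out (rows). Bcl2l1 stays between -0.56 and -0.26 and Bax between 0.22 and 0.35, and Mcl1 crosses 0 only without control library 1.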

How the data were processed

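RNA-Seq libraries of sorted DP thymocytes, 3 control and 3 cKO, were sequenced by the authors. For library preparation the methods cite a Discover-sc WTA kit and the labels a SMARTER kit, a difference not resolved here. The submitters' processing notes name fastp 0.18.0, Bowtie2 2.2.8, HISAT2, StringTie 1.3.1 and RSEM. For their roles, the genome build, the annotation and the use of strand, a statement was not given in the sources used here. Each gene has 1 row. The authors deposited raw counts per gene, whole numbers without normalization, and FPKM, scaled by the authors to transcript length and library size. The deposited columns of group means, log2 ratios, p-values, FDR and pathways hold the authors' own comparison and annotation and were not used. Groups and replicate numbers came from sample titles, which read WT-DP for control and Lck-KO-DP for cKO.

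Counts were tested in R 4.3.3 with edgeR 4.0.16 (filterByExpr at min.count 10 and min.total.count 15, TMM, robust quasi-likelihood test, genotype as the only term, Benjamini-Hochberg adjustment over all tested genes, threshold 0.05). The common coefficient of variation was 0.228. Single genes were also compared by exact permutation, and ratios used FPKM without a test. Alternatives were DESeq2 1.42.0, limma-voom (limma 3.58.1), limma on log2(FPKM + 0.1) and log2(FPKM + 1), RLE factors, library totals alone, no filter, a filter at a mean of 5 CPM, the replicate number as a block, and each library left out. Positions were matched by Ensembl identifier for 22267 of 22322 genes, and promoter windows by symbol for all 7 members. All per-library columns were used (0 left out).

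The members, lists and tests were chosen with earlier results of these data known. Named are the members, Paxbp1, called genes of the lists, otherwise up to 3 genes per list with the highest mean CPM, and for Bcl2l1 and Bax the 3 most alike genes. A few genes that fall under this are not reported here, while list counts and medians include them. In a simulation of the control against cKO comparison, 3 against 3 over 11273 genes, 74 of 99 genes changed 2-fold and 88 of 99 changed 4-fold were called, with 11 unchanged genes. Smaller changes, such as those estimated for Bcl2l1 and Bax, were not simulated, so these shares do not apply to them. Chi-square per degree of freedom between libraries of a group was 20 to 69.3, where sampling noise gives about 1, so none was a resequenced copy of another. Whether libraries of a group shared an animal or an RNA sample cannot be read from these values.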

Additional observations from a re-analysis of the deposited data

How the results depend on the processing

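The directions of Bcl2, Bcl2l1, Bcl2l2, Bax and Bak1 and the absence of a call among the members held under all alternatives run. Without control library 1 the log2 fold change of Mcl1 reversed from -0.08 to 0.10 (edgeR adjusted p = 0.560), and the cause was not tested. Called genes of the other lists numbered 4 higher and 2 lower with all libraries, 1 to 6 higher and 0 to 3 lower when each library was left out, which leaves fewer samples (log2 fold change of Mcl1 in these fits from -0.20 to 0.10), and 3 to 5 higher and 2 to 3 lower under the other alternatives. DESeq2 and limma-voom each called 4 higher, with 3 and 2 lower. Bmf, named after its values were seen, was called lower by DESeq2 (adjusted p = 0.0446) but not by edgeR (0.0731). DESeq2 called 1912 genes in all, beside 1242 by edgeR. Leaving out each library gave 173 (without cKO library 3) to 2070 (without control library 1), with 466, 755, 456 and 801 without control libraries 2 and 3 and cKO libraries 1 and 2.

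Deviations of libraries with the same replicate number were weakly correlated (r = 0.0731, 0.159 and 0.0343 for numbers 1, 2 and 3). On these values the numbers were not taken to pair the samples, although libraries with different numbers were not compared in this way. With the replicate number as a block, 0 members and 1297 genes in all were called, 4 higher and 2 lower in the other lists, and the log2 fold change was -0.42 for Bcl2l1 (edgeR adjusted p = 0.0966), 0.27 for Bax (0.236) and -0.06 for Mcl1 (0.780).

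The order of the 5 highest genes alone, an alternative added after the data were seen, held in 6 of 6 libraries. Depth limited Bcl2l2, Bak1 and Bok, where 1 count was worth 0.0381 to 0.0527 CPM.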
